A study of Mus musculus with 8 samples.

Results

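The genes described here encode the proteins of the cytosolic ribosome, measured by RNA-Seq in mouse kidney cortex. Members were taken by gene symbol (Rpl or Rps followed by a number, or Rpsa, Rplp0, Rplp1 or Rplp2, with pseudogenes and the Rps6k kinases left out) and by a level of at least 0.5 FPKM in at least 4 of the 8 libraries, where FPKM is the number of fragments scaled to transcript length and to the size of the library. The rule took in 84 of the 12383 genes that passed the same filter on low values, out of 17457 genes listed. Of 86 symbols that fitted, 2 fell below the filter. Rpl32l was listed at 0.14 to 0.15 FPKM in 3 libraries and at 0 in the others, and Rpl39l at 0.1 FPKM in 1 library and at 0 in the others. The lowest members inside the filter were the retrocopy Rpl37rt (mean 1.81 FPKM) and the paralog Rpl3l (2.60 FPKM).

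The 84 genes fell into 77 core genes and 7 others. The core genes were 31 of the small subunit, 43 of the large subunit and 3 of the stalk, the flexible arm of the large subunit that recruits elongation factors. The other 7 were 5 paralogs of core genes (Rpl22l1, Rps27l, Rpl36al, Rpl7l1 and Rpl3l), the retrocopy Rpl37rt, and Rps19bp1. The last of these fitted the symbol rule and is counted among the 84, but it encodes a protein that binds Rps19 and is no ribosomal protein. Fau, which encodes a ribosomal protein fused to a ubiquitin-like protein, and Rack1 carry other symbols and were read beside the members. The members were spread over 19 chromosomes, with 14 on chromosome 7 and 4 on chromosome X.

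C57BL/6J mice ate a diet with 0.6% phosphate (normal Pi, 4 mice) or 1.2% phosphate (high Pi, 4 mice), and kidney cortex was collected on day 3. The mice were wild type (WT in the library names), with no transgene or deletion named in the labels. All were males of matched age by the methods of the study. The comparison asked which transcripts of the kidney cortex changed when dietary Pi rose. Each library was 1 mouse, and levels came from the whole cortex, so that fewer cells of a type and less RNA per cell cannot be told apart. High Pi replicates 1 and 3 and normal Pi replicate 2 stood apart by transcript length: over tested genes with transcripts of at least 4000 bases, other than the members, their median log2 deviations from the mean of the 8 libraries were 0.164, -0.146 and 0.086, beside -0.048 to 0.038 in the other 5 libraries.

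A ribosome is built from ribosomal RNA and one copy of nearly every protein in this family, so that the proteins are needed in matched amounts. Many of their mRNAs begin with a cytidine followed by an unbroken run of pyrimidines, the 5′ terminal oligopyrimidine (TOP) motif, through which mTORC1 and the RNA-binding protein Larp1 control translation. That control acts on how often the mRNA is translated and need not change its level, which is the quantity measured here. Kidney tubule cells, most of all those of the proximal tubule, make large amounts of transporter and metabolic protein.

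The annotated starts of the members are shown first because the TOP motif is what the family is known for. RefSeq starts (GRCm38.p6) were found for 64 of the 84 genes, and each window holds 10 bases before the annotated start and 20 from the start on, on the strand of the gene. Below, capitals mark the longest run of C and T in the window, and the annotated start is base 11. The first 6 genes have a C at the start followed by at least 4 pyrimidines, and the last 3 are shown for contrast.
Rpl15, chr14:18270967-18270996, minus strand: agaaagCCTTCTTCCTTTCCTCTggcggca
Rpl35, chr2:39005112-39005141, minus strand: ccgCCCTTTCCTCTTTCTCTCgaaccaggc
Rpl28, chr7:4792955-4792984, plus strand: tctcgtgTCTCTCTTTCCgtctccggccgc
Rps27, chr3:90213629-90213658, minus strand: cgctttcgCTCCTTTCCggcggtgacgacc
Rps15a, chr7:118116128-118116157, minus strand: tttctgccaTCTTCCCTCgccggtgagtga
Rps6, chr4:86857348-86857377, minus strand: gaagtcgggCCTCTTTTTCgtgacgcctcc
Rpl41, chr10:128549149-128549178, minus strand: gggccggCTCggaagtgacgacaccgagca
Rps3, chr7:99483690-99483719, minus strand: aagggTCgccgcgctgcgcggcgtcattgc
Rps19bp1, chr15:80264287-80264316, minus strand: cggaagtagCTCgccgcgtgtgggcggggc

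A C at the annotated start followed by at least 4 bases that were each C or T was found in 13 of the 64 genes (20.3%), and in 3.01% of the 27025 genes with a start in the same table. A run of at least 8 pyrimidines anywhere in the window was found in 24 of the 64 (37.5%), against 13.0% of all genes with a start. The search read the strand of the gene, not its complement. An annotated start can lie several bases from the start a cell uses, so that a window without a match, as for Rpl41 and Rps3, says nothing about the mRNA itself. The 13 genes with a pyrimidine start ranged from 9.48 FPKM (Rps6) to 1025 FPKM (Rpl35) with a median of 385 FPKM, and the other 51 from 1.81 to 1733 FPKM with a median of 313.6 FPKM.

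Most members were among the more abundant transcripts of the cortex. The level was at least 100 FPKM in 75 of the 84, a level that 893 of all tested genes reached, and 30 members stood among the 200 highest genes. Together they held 5.0% to 5.45% of all FPKM in a library and an estimated 2.42% to 2.85% of the reads. The estimated depth was 12950000 to 14050000 reads per library, and the median member received an estimated 3460 reads, which gives a counting error of 1.70%. The lowest member, Rpl37rt, received only an estimated 7.80 reads per library, with a counting error of 35.8%.

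Rpl41, which encodes a very small basic protein of the large subunit, was the highest member and ranked 22 among all tested genes. It measured 1714, 1573, 1870 and 1786 FPKM on normal Pi and 1705, 1574, 1969 and 1670 FPKM on high Pi. The 4 values of each diet spread over nearly the same range. The other core genes with a mean of at least 1000 FPKM were Rps26 (1263 FPKM), Rps2 (1148 FPKM), Rps15 (1044 FPKM), Rpl35 (1025 FPKM) and Rpl28 (1024 FPKM). Rps26 lies where the mRNA leaves the small subunit, Rps2 where the mRNA enters it, and Rps15 near the decoding site. Rpl35 sits at the mouth of the tunnel through which the new protein leaves, and Rpl28 on the surface of the large subunit.

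The core genes differed 183-fold in level although their proteins are needed in matched amounts. The median core level was 383 FPKM, and 4 core genes lay under 100 FPKM. Rps6, the small subunit protein phosphorylated by the S6 kinases downstream of mTORC1, was the lowest. It measured 10.3, 7.86, 9.18 and 8.39 FPKM on normal Pi and 11.8, 8.50, 9.86 and 9.95 FPKM on high Pi, from an estimated 101 reads per library. Of the windows of 100 bases along the Rps6 transcript, 83.6% also occur letter for letter in annotated transcripts of 9 other genes. How the deposited values treat reads that fit several genes is not given in the sources used here, and its part in the level was not tested.

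Rps15a, a small subunit protein, had a mean of 15.9 FPKM. Its only listed transcript is 5179 bases long, the longest of any member, and the estimated 1094 reads per library exceed the 873 reads of Rpl36a, which was listed at 164 FPKM with a transcript of 483 bases. Rps20, a protein of the head of the small subunit, had 36.9 FPKM with a transcript of 3706 bases and an estimated 1801 reads. Rpl22, an RNA-binding protein of the large subunit, had 48.6 FPKM with a transcript of 2051 bases, and none of its windows occurs in another gene. Transcript length and shared sequence both varied among these low genes, and their part in the order of levels was not tested. Sequence shared with another gene was common: 76 of the 84 genes had at least 1 such window, and 35 had it in at least 50% of their windows. The median level of these 35 was 375 FPKM, beside 349 FPKM for the 28 genes with under 25%.

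**Figure D1:**
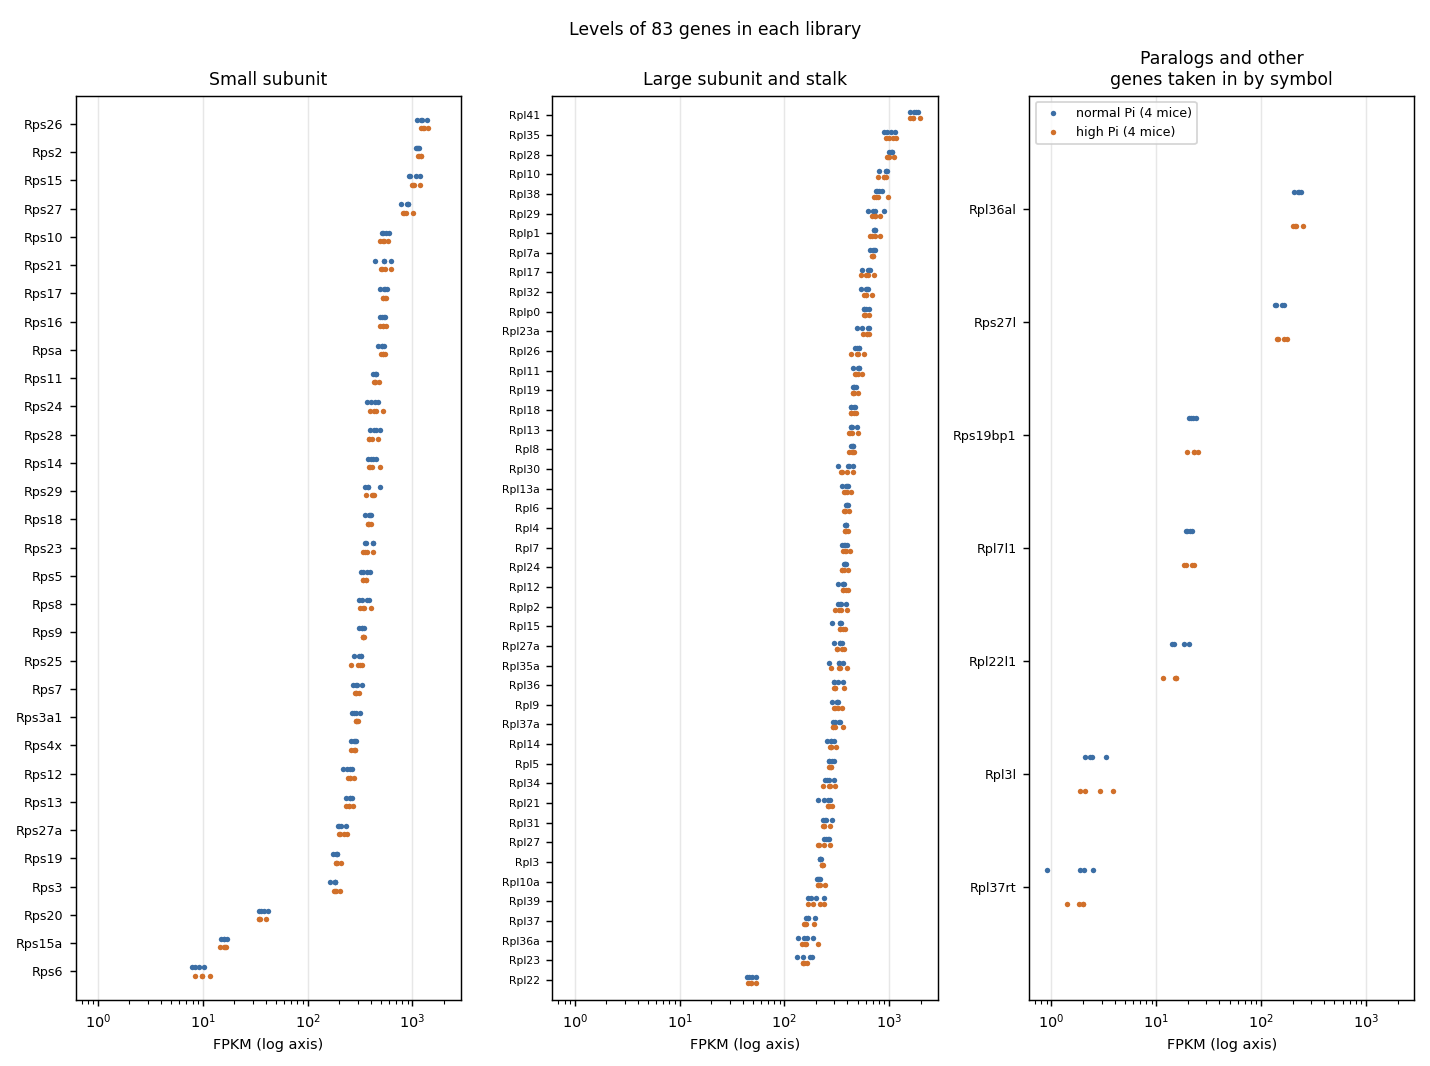
FPKM (horizontal, logarithmic axis) of 83 of the 84 genes (vertical, ordered by mean level) in each library, with 1 point per mouse, blue for normal Pi and orange for high Pi. The points of the diets overlap at nearly every gene, most core genes lie between 100 and 1000 FPKM, and Rps6, Rps15a, Rps20 and Rpl22 fall below 100 FPKM.

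High Pi changed the level of no ribosomal protein gene past the test. With limma-trend on log2(FPKM + 1) and Benjamini-Hochberg adjustment over all 12383 genes, 0 of the 84 were called at an adjusted p under 0.05, where the background was 0.299% of all tested genes in either direction, 0.178% higher and 0.121% lower. At an unadjusted p under 0.05 the count was also 0 of 84, against a background of 9.35% of all tested genes. The smallest adjusted p of a member was 0.664. The count of calls was 0 of 84 also when each of the 8 libraries was left out in turn. Log2 fold changes ran from -0.207 to 0.149 with a median of 0.014, beside a median of -0.011 over all tested genes. Of the 84, 53 were positive (63.1%) and 31 negative, beside 45.7% positive over all tested genes.

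The intervals were narrow on the scale of log2(FPKM + 1), and the limits given here are on that scale. The added 1 makes intervals of low genes narrower than on FPKM itself, as for Rpl37rt (mean 1.81 FPKM) and Rpl3l (2.60 FPKM). The 95% confidence interval of the difference lay within 1.5-fold in both directions for 84 of 84 members and within 1.25-fold for 77 (91.7%), beside 94.4% and 61.0% of all tested genes. Among the 818 other genes of at least 100 FPKM, 92.3% and 72.2% had intervals that narrow. The 7 members with wider intervals than 1.25-fold were Rps6, Rpl27, Rpl36a, Rpl39, Rpl22l1, Rpl3l and Rpl37rt. The median standard deviation within a diet was 0.111 on the log2 scale over the members, 0.133 over all tested genes and 0.109 over the other genes of at least 100 FPKM.

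**Figure D2:**
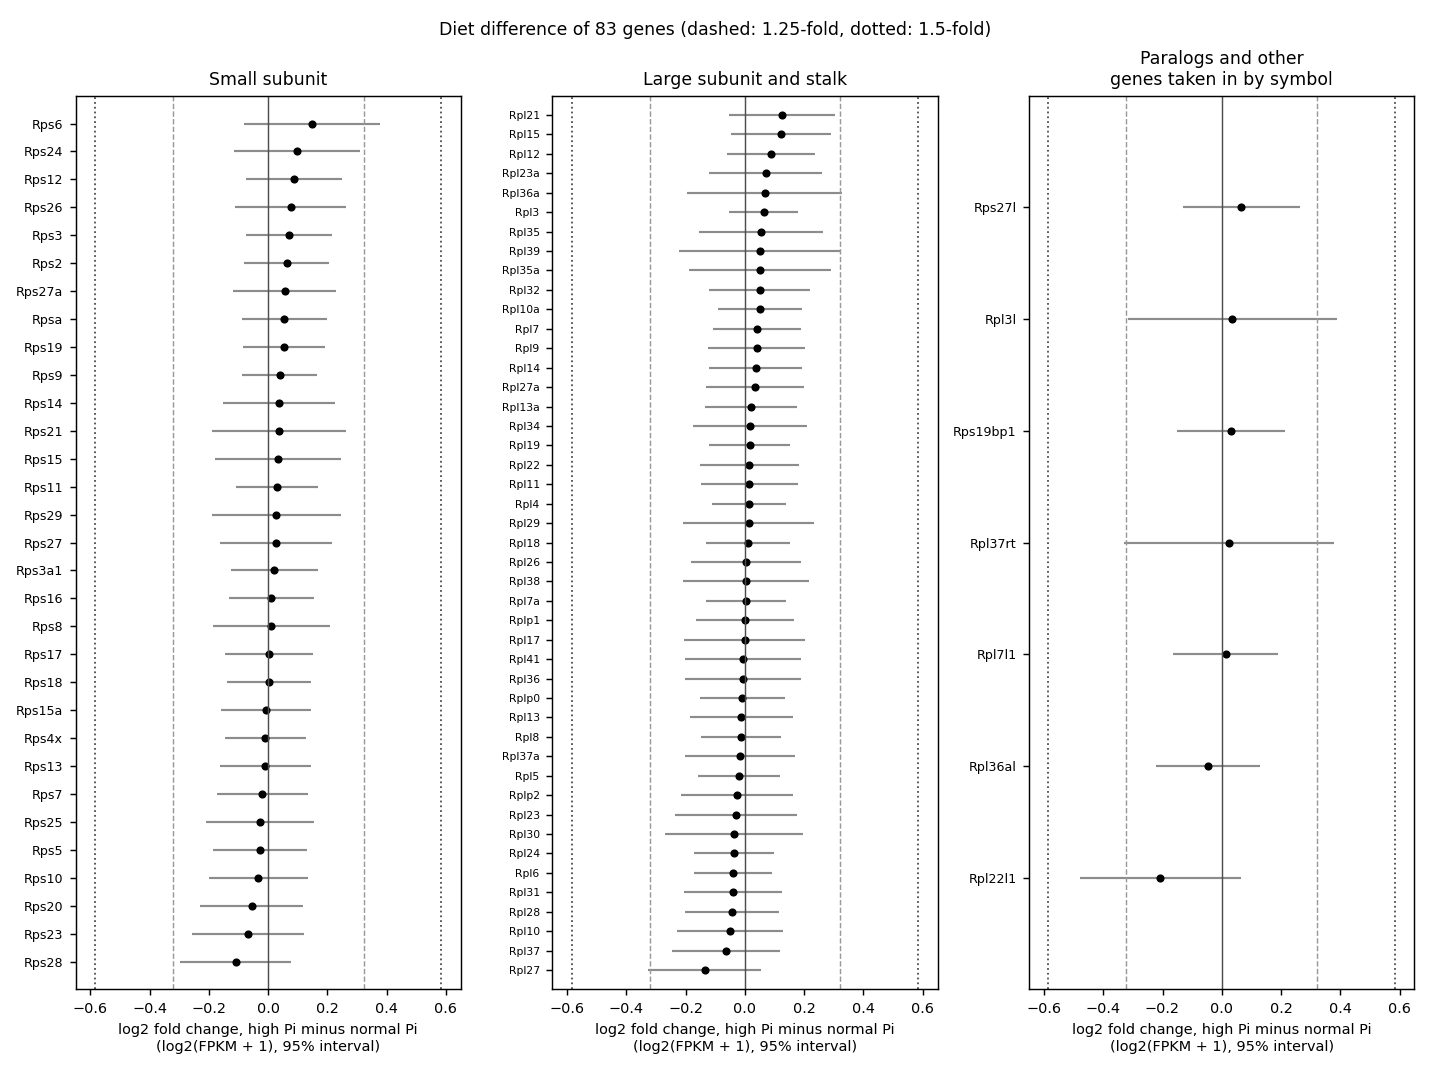
Log2 fold change of high Pi against normal Pi on log2(FPKM + 1) for 83 of the 84 genes, each as a point with its 95% confidence interval from limma-trend (4 mice per diet). Every interval drawn crosses 0 and lies inside the dotted lines at 1.5-fold, and 7 reach beyond the dashed lines at 1.25-fold.

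In the small subunit, 21 genes had a positive and 10 a negative difference, with a median log2 fold change of 0.027 and a range from -0.110 to 0.149. Rps6 had the largest positive value (0.149, SE 0.106, adjusted p = 0.729 by limma-trend), and 3 of its 4 high Pi values fell inside the range of normal Pi. Rps12, a protein of the beak of the small subunit, measured 253, 218, 238 and 265 FPKM on normal Pi and 254, 244, 278 and 256 FPKM on high Pi (log2 fold change 0.09). Rps3, which lies at the mRNA entry, measured 183, 164, 182 and 184 FPKM on normal Pi and 183, 185, 203 and 178 FPKM on high Pi (log2 fold change 0.07). In both genes the lowest value of the 8 was that of normal Pi replicate 2.

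Rps28, which lies beside the mRNA at the exit site, had the largest negative difference of the small subunit. It measured 433, 396, 493 and 454 FPKM on normal Pi and 384.0, 384.1, 466 and 411 FPKM on high Pi. The 2 lowest values were from high Pi, yet high Pi replicate 3 exceeded 3 of the 4 normal Pi values. The log2 fold change was -0.11 (SE 0.0861, adjusted p = 0.759 by limma-trend). Rps23, a protein of the decoding centre, had a log2 fold change of -0.07, with 356 to 424 FPKM on normal Pi and 339 to 421 FPKM on high Pi, and Rps20 had -0.06.

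Rpsa, the small subunit protein also known as the laminin receptor precursor, had 507 ± 29.9 FPKM on normal Pi and 526 ± 16.8 FPKM on high Pi (SD, n = 4 each). Rps4x, an X-linked protein of the small subunit, had 277 ± 13.2 FPKM and 276 ± 11.4 FPKM. The abundant Rps2 had 1123 ± 28.5 FPKM and 1174 ± 45.4 FPKM, and Rps26 had 1231 ± 120 FPKM and 1295 ± 84 FPKM. The values of the diets overlapped in each of these genes.

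In the large subunit, 27 genes had a positive and 16 a negative difference, with a median log2 fold change of 0.013 and a range from -0.136 to 0.125. Rpl21 (0.125) and Rpl15 (0.122) had the largest positive values. Rpl15, which is buried in the ribosomal RNA and carries the long pyrimidine run shown above, measured 339, 285, 336 and 349 FPKM on normal Pi and 336, 342, 381 and 362 FPKM on high Pi. Only normal Pi replicate 2 lay well below the others, and the remaining values overlapped. Rpl21 behaved likewise, with 260, 210, 274 and 241 FPKM on normal Pi and 265, 263, 284 and 258 FPKM on high Pi, and again its lowest value came from normal Pi replicate 2. The adjusted p by limma-trend was 0.702 for Rpl21 and 0.690 for Rpl15. Rpl12, which forms the base of the stalk, had a log2 fold change of 0.09.

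Rpl3, which reaches towards the peptidyl transferase centre, was the only one of the 84 members whose diets did not overlap. It measured 218, 217, 224 and 219 FPKM on normal Pi and 228, 232, 229 and 227 FPKM on high Pi, so that all 4 high Pi values exceeded all 4 normal Pi values by a small margin. The means were 219 ± 3.05 and 229 ± 2.34 FPKM (SD, n = 4 each), the log2 fold change was 0.06 (SE 0.0535) and the adjusted p by limma-trend was 0.790. Diets without overlap were the case for 5.02% of all tested genes, so that 1 of 84 members is no more than the background. Of its windows, 79.4% occur in transcripts of 7 other genes.

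Rpl27, a protein of the large subunit near the exit tunnel, had the largest negative difference of a core gene. It measured 241, 269, 262 and 252 FPKM on normal Pi and 209, 214, 275 and 238 FPKM on high Pi. The 3 lowest values were all from high Pi, but high Pi replicate 3 gave the highest value of the 8. The log2 fold change was -0.14 (SE 0.0869, adjusted p = 0.691 by limma-trend), and without high Pi replicate 3 it was -0.22 with an adjusted p of 0.397. Rpl37 had a log2 fold change of -0.07, Rpl6 and Rpl28 had -0.04, and Rpl10, which joins the subunit last in the cytoplasm, had -0.05. Rpl28 measured 1039 ± 35.6 FPKM on normal Pi and 1009 ± 71.0 FPKM on high Pi. The most even core gene was Rpl4, which lines the exit tunnel, with a coefficient of variation of 2.32% over the 8 libraries. The median over the members was 7.42%, beside 11.7% over all tested genes.

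The stalk genes did not differ between diets by more than their spread. Rplp0, the stalk base and a common reference gene in quantitative PCR, measured 580.1, 581, 636 and 602 FPKM on normal Pi and 639, 578, 584 and 583 FPKM on high Pi. Its log2 fold change was -0.01, with a 95% interval from -0.152 to 0.134. Rplp1 had 721 ± 10.4 and 723 ± 69.5 FPKM, and Rplp2 had 350.3 ± 28.7 and 344 ± 36.7 FPKM. Rplp1 and Rplp2 pair on the stalk, and Rplp1 was the more abundant transcript per length in all 8 libraries.

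Among the paralogs, Rpl22l1 had the largest difference of any member. The protein can take the place of Rpl22 in the ribosome. Rpl22l1 measured 20.4, 14.7, 14.1 and 18.3 FPKM on normal Pi and 15.5, 15.6, 14.98 and 11.7 FPKM on high Pi. The 2 highest values were from normal Pi and the lowest from high Pi, but 2 normal Pi values lay below 3 of the high Pi values. The log2 fold change was -0.21 (SE 0.124, 95% interval -0.478 to 0.064, unadjusted p = 0.121, adjusted p = 0.664 by limma-trend). As a share of Rpl22l1 plus Rpl22, it held 25.8 ± 2.80% on normal Pi and 22.8 ± 2.75% on high Pi (SD, n = 4 each), and an exact permutation test of the log2 ratio, 2-sided, gave p = 0.200 (0.571 adjusted over 5 pairs). The smallest p that 70 assignments of the libraries allow is 0.0286.

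The other 4 pairs moved less. Rps27l, a paralog of Rps27 known as a p53 target, held 14.7 ± 0.953% on normal Pi and 15.1 ± 0.656% on high Pi of the sum with Rps27. Rpl36al, an autosomal copy of the X-linked Rpl36a, was the only paralog that exceeded its core gene, with a share of 58.5 ± 2.08% and 56.6 ± 2.01%. Windows that occur in other genes made up 83.6% of Rpl36a, 59.0% of Rpl36al, 98.4% of Rps27 and 50.8% of Rpl22l1. For Rps27l and Rpl22 it was 0%. How such reads were assigned is not given, and its part in the paralog shares was not tested. Rpl36a itself measured 189.6, 135, 165 and 153 FPKM on normal Pi and 156, 147, 209 and 162 FPKM on high Pi. Rpl7l1, a factor of large subunit assembly in the nucleolus, held 5.11 ± 0.0893% and 5.04 ± 0.544% of the sum with Rpl7. Rpl3l, known from heart and skeletal muscle, held 1.14 ± 0.238% and 1.15 ± 0.376% of the sum with Rpl3. The adjusted exact permutation p of the 4 pairs lay between 0.571 and 0.886.

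The retrocopy Rpl37rt measured 0.90, 1.85, 2.49 and 2.03 FPKM on normal Pi and 1.81, 2.01, 1.99 and 1.42 FPKM on high Pi, where counting alone gave an error of 35.8% per library. Rps19bp1 had 22.1 ± 1.5 FPKM on normal Pi and 22.7 ± 2.25 FPKM on high Pi.

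The transcript tables gave a second readout of the same libraries. They listed 143 transcripts of the 84 genes, and 50 genes had 1 transcript each. In 9 genes the second transcript had a mean of at least 5 FPKM and 10% of the gene, and none of the 9 shares differed between diets by an exact permutation test (smallest p = 0.171, adjusted p = 0.669). That smallest p was of Rps4x, whose second transcript held 46.5, 50.9, 48.8 and 45.4% on normal Pi and 47.1, 43.8, 46.7 and 44.7% on high Pi. With 9 genes, a single gene whose diets did not overlap would reach an adjusted p of 0.257 and no lower.

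Rps24, which is known for alternative splicing near its 3′ end, had the most listed transcripts, 9. Its second transcript held 17.4, 19.5, 26.7 and 24.8% on normal Pi and 13.0, 23.0, 21.5 and 22.6% on high Pi, and the values of the diets overlapped. Rpl22l1 had the widest spread, with the second of its 2 transcripts between 24.0% and 58.3% of the gene over the 8 libraries. The second transcript of Rpl38, a protein of the large subunit known in mouse for its part in axial skeletal patterning, stayed between 8.51% and 10.8%. How reads are divided among transcripts that share most of their length is uncertain.

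**Figure D3:**
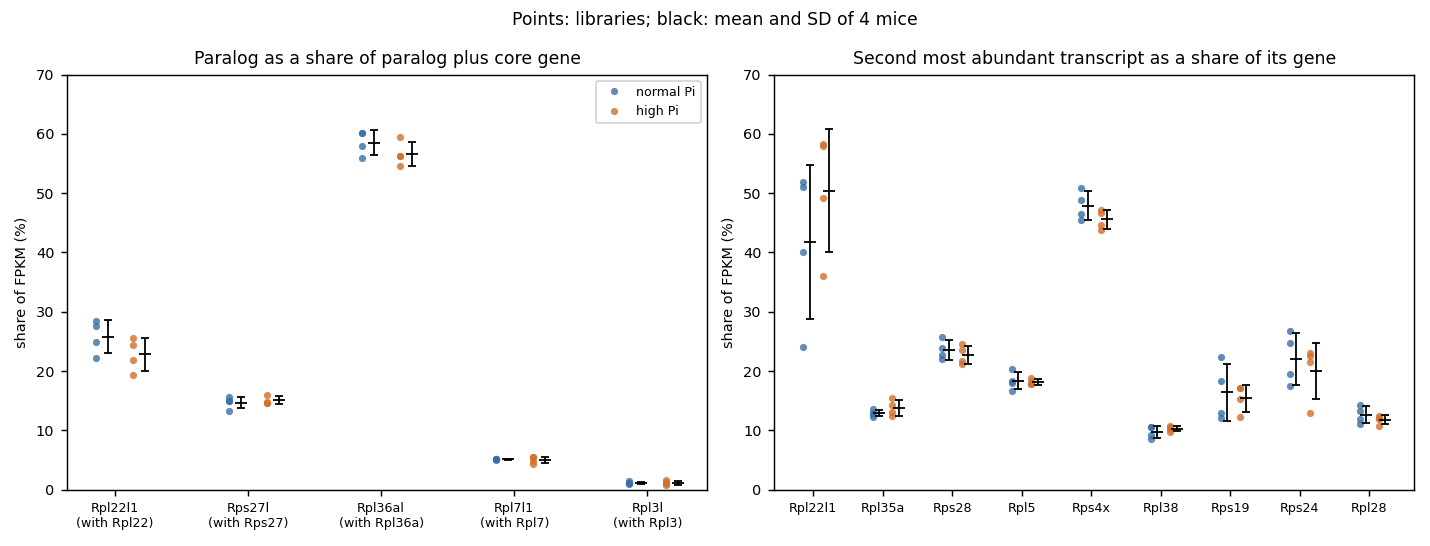
Left, each paralog as a percent of the FPKM of paralog plus core gene, and right, the second most abundant transcript as a percent of its gene's FPKM in the 9 genes tested. Points are libraries (blue normal Pi, orange high Pi) and black marks are the mean and SD of 4 mice. The points of the diets overlap at each gene, and Rpl22l1 spreads most among transcripts, from 24.0% to 58.3%.

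While the diets differed little, the family moved between libraries as a block. The summed level ran from 32262 FPKM (normal Pi replicate 2) to 38513 FPKM (high Pi replicate 3), with 34800 ± 1830 FPKM on normal Pi and 35180 ± 2230 FPKM on high Pi (SD, n = 4 each). In normal Pi replicate 2, 2 of the 84 genes lay above their own mean over the 8 libraries and 45 had their lowest value there. In high Pi replicate 3, 79 lay above and 55 had their highest value there. The sum of large subunit genes was 1.58 to 1.62 times that of small subunit genes in every library, so that the subunits moved together.

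After the diet means were removed, the median correlation over the 3486 pairs of members across the 8 libraries was 0.592, and 91.5% of the pairs were positive. Over pairs of the 818 other genes of at least 100 FPKM the median was 0.0673 and 53.8% were positive. Those 818 genes were not matched to the members for transcript length and had a median of 1592 bases. These correlations rest on 8 shared libraries and describe them. In the 3 libraries that stood apart, other short transcripts moved the same way. The median member transcript was 831.5 bases long, against 2840 bases for the other tested genes. In high Pi replicate 3, members with transcripts under 600 bases deviated by a median of 0.189 on the log2 scale, and the 147 other genes of that length by 0.189. In normal Pi replicate 2 the values were -0.118 and -0.108, and in high Pi replicate 1 -0.070 and -0.100. In the other 5 libraries these medians were smaller, and in high Pi replicate 4 they differed in sign (-0.019 for the members and 0.016 for the others).

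Among transcripts of 1000 to under 2000 bases the members and the others parted in high Pi replicate 3 and normal Pi replicate 2, though not in high Pi replicate 1 (-0.013 and -0.006). The 21 members of that length deviated by 0.120 in high Pi replicate 3 and by -0.112 in normal Pi replicate 2, where the 2815 other genes deviated by 0.040 and -0.018. When the trend on transcript length over all tested genes was taken out of each library, the median deviation of the members in high Pi replicate 3 went from 0.141 to 0.007, and in normal Pi replicate 2 from -0.111 to -0.037, with 22 of 84 genes then above their own mean. The median correlation of member pairs went from 0.592 to 0.110, and that of other genes was not computed after this step. What set these library differences was not tested.

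**Figure D4:**
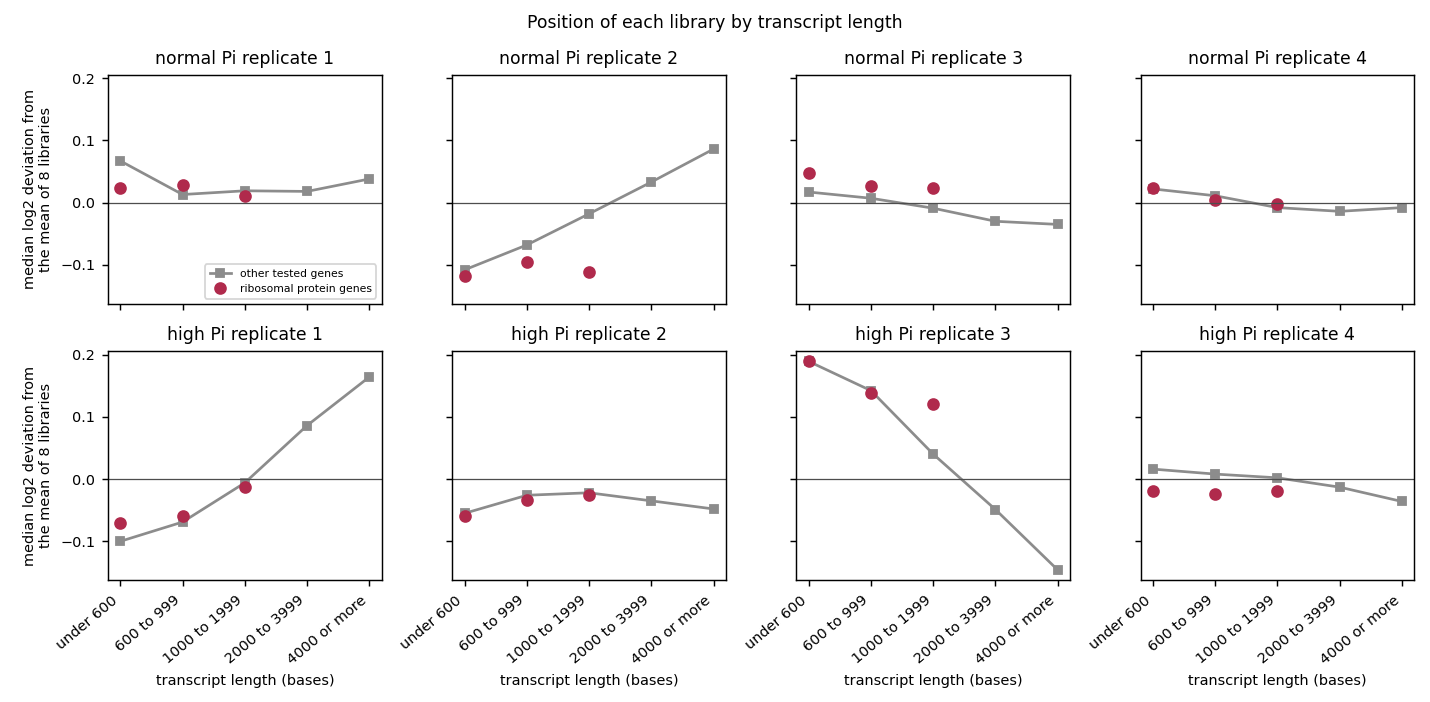
Median log2 deviation of a library from the mean of the 8 libraries (vertical) by transcript length (horizontal, bases), for other tested genes (grey squares, lines) and for the ribosomal protein genes (red points, shown for the 3 classes with at least 21 members). In high Pi replicate 3 both reach 0.189 under 600 bases, and in normal Pi replicate 2 they lie at -0.118 (members) and -0.108 (others), with the members lower than the others at 1000 to under 2000 bases.

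The genes that make, load and regulate the ribosome were read from fixed lists in the same fit, and 0 genes of these lists were called, beside the background of 0.299%. Fau had 187 ± 13.9 FPKM on normal Pi and 183 ± 11.1 FPKM on high Pi, and Rack1 285 ± 14.2 and 288 ± 8.10 FPKM. Of 10 genes of translation elongation (elongation factors with a kinase and a methyltransferase that modify them) and 22 TOP mRNAs outside the members, 5 of which stand in both lists, 0 had an unadjusted p under 0.05. In these, Eef1a1, which delivers aminoacyl-tRNA, had 2480 ± 77.7 and 2466 ± 164 FPKM. Pabpc1, the cytoplasmic poly(A)-binding protein, had a log2 fold change of 0.15 (95% interval -0.036 to 0.345). The 78 genes of the mitochondrial ribosome also held 0 at an unadjusted p under 0.05, with a median log2 fold change of 0.00099.

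Of 41 initiation factor genes, 3 had an unadjusted p under 0.05, near the background of 9.35%. Eif4g3, a scaffold of cap binding, had the smallest p of these, with a log2 fold change of -0.23 (adjusted p = 0.365 by limma-trend), and Eif4a2, an RNA helicase, had 0.19. Of 53 genes of ribosomal RNA transcription and processing the count was 1. That gene was Polr1c, a subunit shared by RNA polymerases I and III, which measured 19.87, 19.96, 20.02 and 20.62 FPKM on normal Pi and 18.5, 17.1, 17.4 and 18.0 FPKM on high Pi. The diets did not overlap, which was the case for 5.02% of all tested genes, and the adjusted p by limma-trend was 0.362. Of 47 genes of subunit assembly and export, 0 had an unadjusted p under 0.05.

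In the list of 44 genes of the mTORC1 pathway and TOP regulators, the count at an unadjusted p under 0.05 was 3. The background was 9.35% of all tested genes. Of the 44, 12 had a positive and 32 a negative difference, with a median log2 fold change of -0.039. Over all tested genes, 45.7% had a positive difference. Eif4ebp1, the mTORC1 target that holds back cap-dependent initiation, had the smallest p. It measured 23.6, 22.7, 23.0 and 22.8 FPKM on normal Pi and 28.3, 25.9, 35.3 and 31.2 FPKM on high Pi, with no overlap (log2 fold change 0.37, SE 0.0875, adjusted p = 0.136 by limma-trend). Of all tested genes, 5.02% had no overlap between diets. Castor1, an arginine sensor upstream of mTORC1, had 9.97 ± 0.768 and 12.3 ± 1.42 FPKM (adjusted p = 0.327). Both passed the threshold when high Pi replicate 1 was left out, with adjusted p of 0.0386 for Eif4ebp1 and 0.0308 for Castor1, in a fit that called 421 of all tested genes against 37 with all libraries. Neither was called when any of the other 7 libraries was left out. The kinase Mtor had 25.6 ± 2.61 and 25.6 ± 3.16 FPKM, the S6 kinase Rps6kb1 8.88 ± 1.62 and 8.16 ± 0.583 FPKM, and Larp1 21.7 ± 1.17 and 20.1 ± 2.62 FPKM.

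In the Myc network, 2 of 11 genes had an unadjusted p under 0.05. The background for the counts in this paragraph was 9.35% of all tested genes, and 5.02% had no overlap between diets. Myc, a transcription factor that drives ribosomal protein and ribosomal RNA genes, measured 1.96, 2.54, 1.98 and 2.28 FPKM on normal Pi and 4.37, 2.50, 3.74 and 3.21 FPKM on high Pi. One high Pi value lay below the highest normal Pi value (log2 fold change 0.47, SE 0.128, adjusted p = 0.190 by limma-trend). Mnt, a repressor that competes with Myc for the partner Max, had 9.50 ± 0.683 and 7.80 ± 0.425 FPKM without overlap (adjusted p = 0.264). In the list of p53 and ribosomal stress, 2 of 13 genes had an unadjusted p under 0.05, Phlda3 with a log2 fold change of 0.32 (adjusted p = 0.264) and Aen with 0.19 (adjusted p = 0.479). Phlda3 is a p53 target that inhibits Akt, and Aen a p53-induced nuclease. The diets did not overlap in Phlda3, and they did in Aen. In the list of ribosome rescue and quality control the count was 1 of 18. That gene was Eif2ak4, the sensor of uncharged tRNA, with a log2 fold change of 0.26 (adjusted p = 0.381 by limma-trend) and no overlap. Of the 18, 5 had a positive and 13 a negative difference, beside 45.7% positive over all tested genes.

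**Figure D5:**
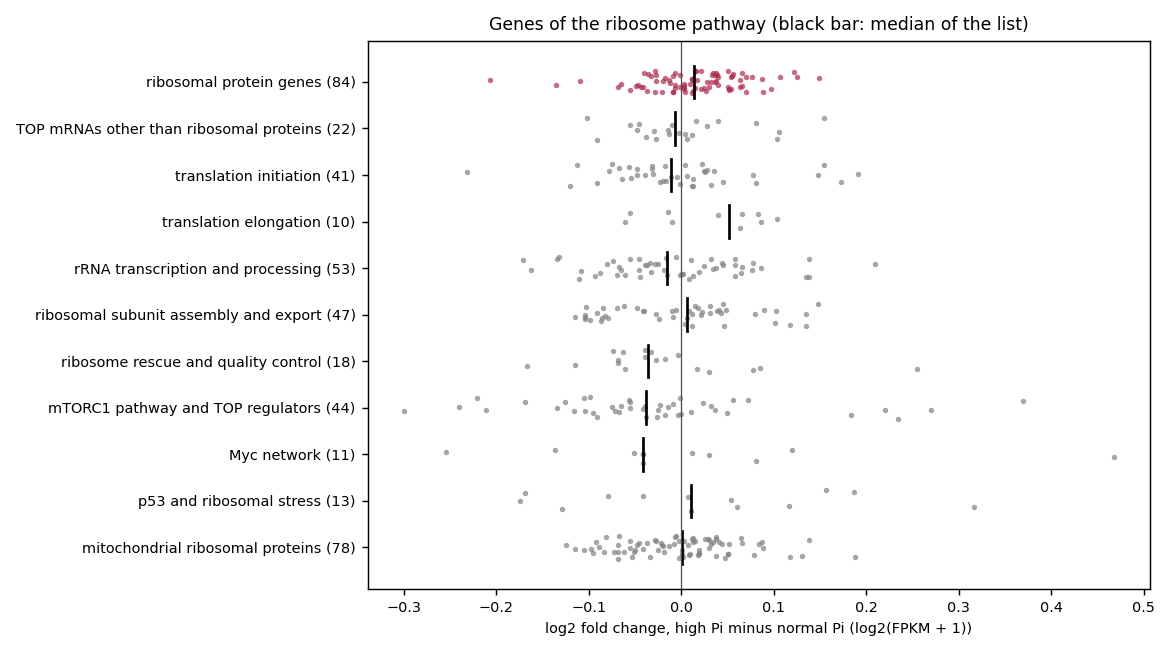
Log2 fold change of high Pi against normal Pi on log2(FPKM + 1) for the genes of each list (number of genes in brackets), with 1 point per gene, the 84 ribosomal protein genes in red and the list median as a black bar. The red points lie between -0.207 and 0.149, while single genes of other lists reach beyond, up to Myc at 0.47.

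The tissue label fitted the markers of kidney cortex. The 14 proximal tubule markers were all above 0 and summed to 7657 to 8240 FPKM on normal Pi and 6646 to 7654 FPKM on high Pi. The difference in the sums lay mostly in Slc34a1, the phosphate cotransporter Npt2a (3909 ± 268 and 2958 ± 170 FPKM, adjusted p = 0.102 by limma-trend), and the list went both ways, with a median log2 fold change of 0.0074 and, for example, Slc5a2 at -0.49 and Slc13a3 at 0.25. Of the 14, 6 had an unadjusted p under 0.05, beside the background of 9.35%. Markers of leukocytes summed to 281 to 322 FPKM on normal Pi and 279 to 444 FPKM on high Pi. An unadjusted p under 0.05 was found for 4 of 7 of them, 3 of 6 for fibroblasts and pericytes and 2 of 6 for endothelial cells. The 3 of fibroblasts and pericytes (median of the list 0.35) went both ways, with Dcn at 0.66, Col1a2 at 0.39 and Acta2 at -0.22. One marker of all lists was called, Pvalb of the distal convoluted tubule (log2 fold change 0.49, adjusted p = 0.042 by limma-trend). The other markers of that segment were at -0.14 (Slc12a3), -0.12 (Trpm6) and -0.09 (Calb1), and the median of the list was -0.11. Markers of red blood cells summed to 2019 to 5218 and 2931 to 5601 FPKM. Kap, an androgen-responsive transcript of the proximal tubule, took 8.47% of all FPKM in high Pi replicate 1 and 16.8% in high Pi replicate 3, which bears on every share of total FPKM. The part of these differences in the members' values was not tested.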

How the data were processed

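RNA of mouse kidney cortex from 8 mice, 4 per diet, was sequenced on a DNBSEQ platform. FPKM per gene and per transcript, as deposited by the authors, were used. HISAT, Bowtie2 and GRCm38.p6 are named in the submitters' processing notes. Their versions, the quantifier and its treatment of reads that fit several genes are not given in the sources used here. The files hold no counts, and the authors' count test could not be rerun. Read numbers and counting errors are estimates from the spacing of low FPKM values (78.8% to 83.3% of them within 0.15 of a whole read) and cover counting error only.

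Genes with at least 0.5 FPKM in 4 libraries were fitted in limma-trend (limma 3.58.1, R 4.3.3) on log2(FPKM + 1) without covariates, and p-values were adjusted over all 12383 genes. Fold changes on this scale understate those of low genes. Transcript lengths were taken for 99.2% of the tested genes. Shares and paralog ratios were tested by exact permutation over the 70 assignments of libraries (SciPy 1.17.1). Shared windows are exact matches of 100 bases in GENCODE M21 transcripts. The script was tested on simulated data. Named genes were the 8 members with the smallest p in each direction, the 5 highest and 5 lowest, paralogs with their core genes (also Rpl39, Rpl10 and Rps4x, core genes of paralogs that were not among the members), Rplp0, Rps6, Rps24, Rpsa and Rps19bp1. In the related lists they were up to 2 genes of smallest p, and a few familiar genes (Fau, Rack1, Eef1a1, Pabpc1, Mtor, Rps6kb1 and Larp1) and the members Rpl4, Rplp1 and Rplp2 were added after their values were seen. The values of a few genes are not reported here by name. The members and lists were chosen with earlier results of these data known. In 23 symbols that a spreadsheet had turned into dates, the symbol was restored from the gene ID. Alternatives were quantile and median-of-ratios scaling, other filters and pseudocounts, removal of the length trend, a replicate block, library weights and leaving out each library.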

Additional observations from a re-analysis of the deposited data

Results flagged for a closer look

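In all, 108 groups of 4 libraries were looked at, among them the named members, paralog shares and transcript shares in each diet. The gap of a library to the nearest of the other 3 was divided by the range of its group. In 10 groups, 1 library stood apart by more than Dixon's critical value at 95%. Chance gives this in about 1 of 20 independent groups. These groups share the same libraries and genes that moved together, so the 10 cannot be set against that rate. Normal Pi replicate 2 and high Pi replicate 3 each stood apart 3 times, and high Pi replicates 1 and 4 each 2 times.

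In normal Pi replicate 2, Rps3 was at 164 FPKM (others 182 to 184 FPKM), Rps27 at 771 FPKM (others 896 to 904 FPKM) and Rpl10 at 791 FPKM (others 938 to 947 FPKM). In high Pi replicate 3, Rpl37 was at 191 FPKM (others 155 to 160 FPKM), Rpl6 at 409 FPKM (others 374 to 380 FPKM) and Rps15 at 1191 FPKM (others 995 to 1028 FPKM). In high Pi replicate 4, Rpl22l1 was at 11.7 FPKM (others 14.98 to 15.6 FPKM), and Rps27l held 16.0% of the sum with Rps27 (others 14.7% to 14.8%). In high Pi replicate 1, Rplp0 was at 639 FPKM (others 578 to 584 FPKM), and the second transcript of Rps24 held 13.0% of its gene (others 21.5% to 23.0%).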

How the results depend on the processing

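The count of ribosomal protein genes called was 0 of 84 in each of the 17 alternatives. An unadjusted p under 0.05 arose for Rpl27 (-0.157) and Rps28 (-0.135) with the length trend removed, for Rpl22l1 with library weights (-0.306) or without normal Pi replicate 3 (-0.285), and for Rpl27 without high Pi replicate 3 (-0.217). Their median log2 fold change ran from -0.03 to 0.031 when 1 library was left out. The replicate numbers did not pair the libraries (same-number correlations -0.209 to 0.061), and with the replicate block 0 members and 11 genes in all were called, or 5 with the block and the length trend removed, against 37. It was 8 with no filter on low values, 466 with library weights, and 4 to 421 when 1 library was left out, the 421 without high Pi replicate 1. The related lists then held 0 to 3 calls (Castor1, Eif4ebp1 and Nhp2 without high Pi replicate 1) and 3 with library weights (Castor1, Eif4ebp1 and Eif4ebp3). The cause was not tested.

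Of 644 repeats over the 38 named members, 594 kept their direction and side of the threshold and 50 turned sign, none past the threshold. With quantile scaling Rps15a and Rpl41 were at 0.007 and Rps27 at -0.022, with median-of-ratios scaling Rps15a and Rpl41 at 0.001, with the length trend removed, with or without the block, Rps15a at 0.026, and with library weights Rpl37rt at -0.102, Rps15 at -0.028, Rps27 at -0.007 and Rpl7 at -0.005. When 1 library was left out, the log2 fold change ran from -0.154 to 0.138 for Rpl37rt, -0.106 to 0.146 for Rpl3l, -0.032 to 0.026 for Rps15a, -0.002 to 0.119 for Rpl35, -0.026 to 0.104 for Rps15, -0.071 to 0.036 for Rpl41, -0.029 to 0.064 for Rpl22, -0.042 to 0.062 for Rps27, -0.041 to 0.149 for Rpl36a, -0.035 to 0.059 for Rpl7l1, 0 to 0.069 for Rpl7, -0.033 to 0.151 for Rpl39, -0.041 to 0.021 for Rps4x, -0.043 to 0.02 for Rplp0 and -0.018 to 0.095 for Rps19bp1. The log2 ratio to the core gene differed by -0.014 to 0.071 for Rps27l, -0.071 to 0.041 for Rpl7l1, -0.169 to 0.081 for Rpl3l, -0.31 to -0.133 for Rpl22l1 and -0.166 to -0.072 for Rpl36al. The transcript share differed, in percentage points, by -0.708 to 0.482 for Rpl5, -2.376 to 1.011 for Rps19 and -3.635 to 0.279 for Rps24.

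With 4 mice per diet, unknown read assignment and estimated depth, the 95% interval reached beyond 1.25-fold for 7 members, and protein, phosphorylation and translation were not measured.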
